A study of Glycine max with 46 samples.

Results

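The black hilum of the soybean (Glycine max) seed coat was compared with the rest of the same coats by RNA sequencing. The comparison used 8 of the 46 libraries of the series: 4 from hilum and 4 from coat with the hilum cut away, with 2 libraries for each tissue at each of 2 stages. All 8 came from greenhouse plants of the cultivar Williams (laboratory line W43, genotype i-i RT w1), which has a yellow coat with a black hilum, so the groups differed in tissue and stage and not in genotype. The stages are seeds of 25-50 mg and of 50-100 mg fresh weight, and the tissues were separated by hand. The design text calls the 2 libraries of a group biological repeats. Levels are RPKM (reads per kilobase of cDNA scaled to the library total) as deposited. Differences are hilum minus coat on the scale log2(RPKM + 1) after median-ratio rescaling, with stage and library series (R51 to R58 and R126 to R129, numbered as in the labels) as blocks, given ± SE over 8 libraries and called at a limma adjusted p under 0.05. Of 56044 genes, 29163 reached a mean RPKM of 1 and were tested. The mean is over all 8 libraries, so a gene near 0 in 1 tissue was tested only through its level in the other. The direction of such a gene followed from the filter.

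The hilum is the scar left where the seed was attached to the pod by the funiculus. In legumes the funicular vascular bundle enters the seed coat there, the tissue below the scar holds a bar of tracheids (dead, lignified water-conducting cells), and the seed later breaks away at an abscission layer. The maternal coat passes sugars, amino acids, ions and water on to the embryo, which has no vascular connection of its own, so transporters of the coat set what the embryo receives. Gene symbols below are those of the Arabidopsis hit that the deposited table pairs with each soybean gene, and roles are those known in Arabidopsis unless stated otherwise.

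Library totals were 78.3 M to 157.8 M alignments, apart from 1 coat library of 50-100 mg with 545.0 M. That library, R58, has RNASeq10 in its column header, where R51, R52 and R53 have RNASeq9. A count of 0 allows up to 3 reads, which in a model of 1 kb is an RPKM of 0.00550 to 0.0383 depending on the library, counting error only. The treatment of reads shared by near-identical copies, and of strand, is not given in the sources used here, so pairs of close homologues are not separate measurements and overlapping genes were not resolved. Storage protein genes of the embryo summed to 47.9 to 341 RPKM in the hilum, highest in 1 library of 50-100 mg, and to 23.4 to 76.0 in the coat. Of 14 tested genes on that list 9 were higher and 1 lower in the hilum. Light-harvesting genes summed to 2537 to 3192 RPKM in the hilum and 2839 to 5285 in the coat, with 9 of 122 higher and 41 lower. Without rescaling 5 storage genes were higher and 2 lower, and 5 light-harvesting genes higher and 61 lower. With each library left out in turn the storage genes called higher numbered 5 to 11, and the light-harvesting genes called higher 4 to 16 and lower 21 to 54. The part of embryo tissue and of green cells in the differences below was not tested. In these bulk samples fewer cells of a type and less RNA per cell cannot be told apart.

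The dissection separated the tissues across much of the transcriptome. At the threshold, 7752 genes (26.6% of those tested) were higher in the hilum and 6455 (22.1%) were lower, 48.7% in all. Most of these differences were small: 313 genes (1.07%) were called and at least 4-fold higher, and 225 (0.772%) at least 4-fold lower, a size rule added after the values had been seen. With a pseudocount of 0.1 these were 680 and 627, and with limma voom on reads rebuilt from RPKM 677 and 740. Among the 14207 called genes, 13668 (96.2%) had the same sign in all 4 pairs of hilum and coat libraries of the same stage and series. The calls rest on these same pairs, so this share is no separate support for them. Within the libraries R51 to R58 alone 1896 genes were higher and 1515 lower, and within R126 to R129 alone 6189 and 5018. Without rescaling the median of all genes fell from 0.031 to −0.109 and the balance turned, to 5051 higher and 9712 lower of 29296 tested. Counts of small differences therefore depend on the scaling. Of all tested genes, 10.9% had every hilum value above every coat value in the deposited RPKM, and 21.3% had every coat value above, so absence of overlap in single genes below is to be read against these shares.

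**Figure D1:**
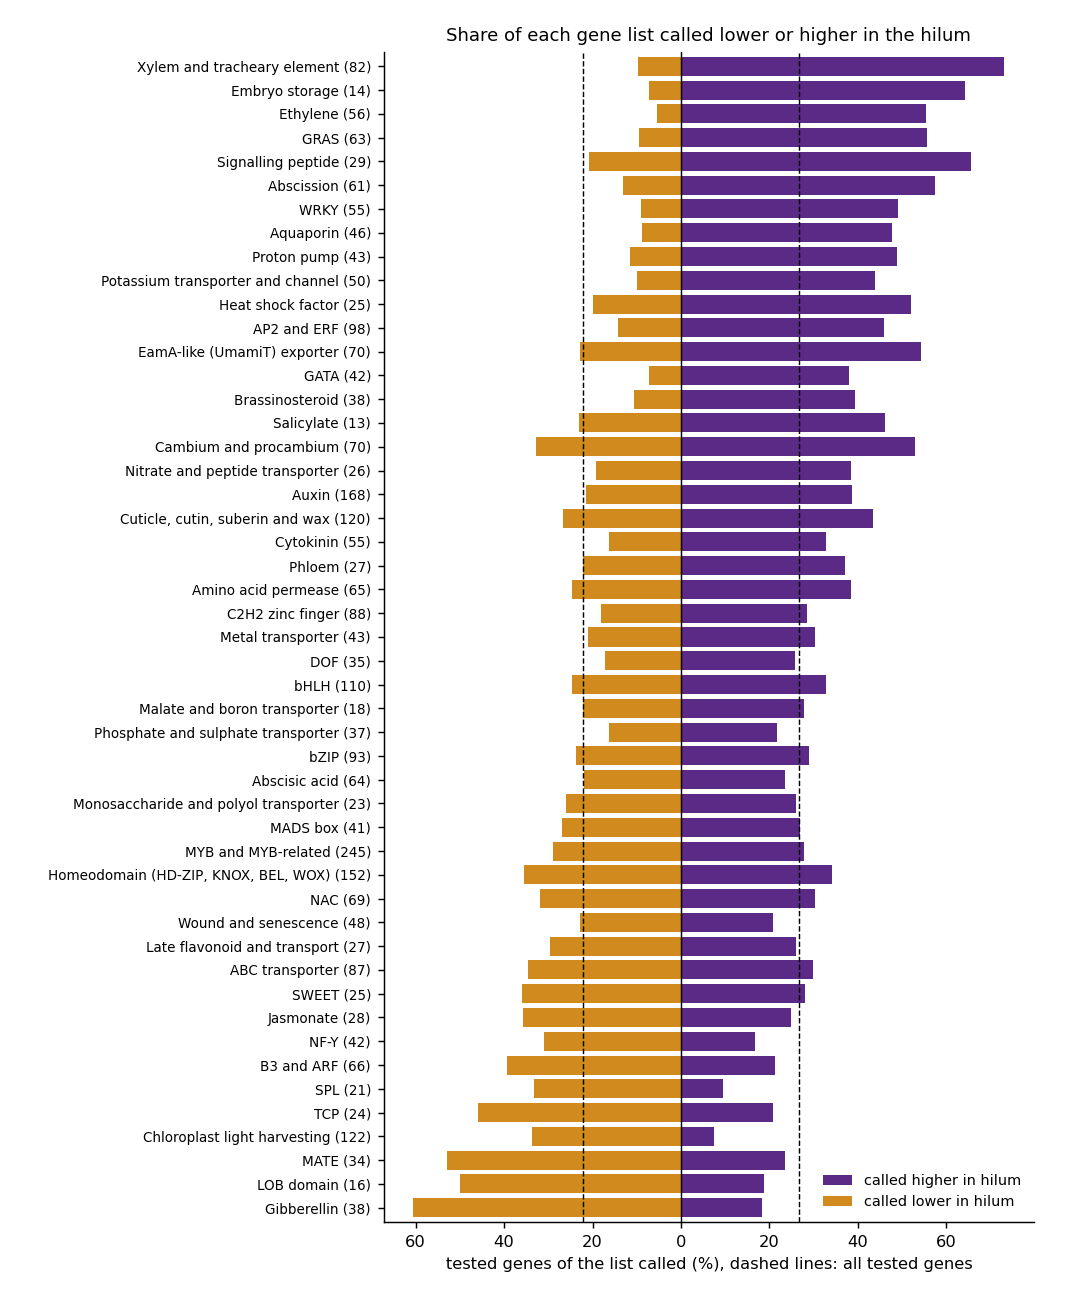
Share of the tested genes of each list that were called lower (left, orange) or higher (right, purple) in the hilum, in percent, with the number tested in parentheses and dashed lines at the share among all tested genes (22.1% and 26.6%). Lists with 13 or more tested genes are shown; xylem genes (73.2% higher) stand at the top and gibberellin genes (60.5% lower) at the bottom. Without rescaling the majority turns from higher to lower for bHLH, bZIP, C2H2, DOF, amino acid permease, phosphate and sulphate transporter, metal transporter and abscisic acid genes. It then turns for all tested genes too (5051 higher and 9712 lower of 29296).

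Genes of water-conducting tissue gave the clearest difference between hilum and coat. Of 82 tested xylem and tracheary element genes 60 were higher in the hilum and 8 lower, with a median difference of 1.45 against 0.031 for all tested genes, and 25 were at least 4-fold higher. Over the whole vascular class, which adds phloem and cambium genes, 107 of 179 were higher and 37 lower. Of 27 tested phloem genes 10 were higher and 6 lower, which became 7 and 7 without rescaling. All 61 phloem genes, tested or not, summed to 127.5 to 150.3 RPKM in the hilum and 123.4 to 162.6 in the coat. Cambium and procambium genes were called in both directions, 37 higher and 23 lower of 70.

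Genes of the last step of tracheary differentiation, in which the cell digests its own contents, were led by genes that were nearly silent in the coat. XCP2 (Glyma.04G014800), a cysteine protease of that autolysis, was at 16.4 and 20.9 RPKM at 25-50 mg and 60.99 and 65.1 at 50-100 mg in the hilum. In the coat it was at 0.472 and 0.327 RPKM at 25-50 mg and 0.293 and 0.281 at 50-100 mg. Every hilum library lay far above every coat library, and both later hilum libraries lay above both earlier ones. The difference was 4.82 ± 0.35 (limma adjusted p = 7.16e-05). Its neighbour Glyma.04G014700 and the homologues Glyma.06G014800 and Glyma.06G014700 followed the same course, at 4.01, 3.88 and 3.75. The serine peptidase XSP1 (Glyma.09G266000) and the nuclease BFN1 (Glyma.15G068600), which degrades nucleic acids in dying cells, were higher by 2.60 ± 0.25 and 2.00 ± 0.30. Not every gene with such a name moved: XCP1 (Glyma.15G083400) and metacaspase 9 (Glyma.19G122300) were not called, at −0.68 ± 0.24 and −0.26 ± 0.19, although XCP1 was called lower without rescaling and without either first library of 50-100 mg (−0.99 without the coat library and −0.83 without the hilum library). In all, 8 of the 10 tested protease and nuclease genes of this kind were higher, from a grouping by symbol made after the values had been seen, as are the other groups by symbol below. Glyma.04G014800 and Glyma.04G014700, with coat means of 0.343 and 0.181 RPKM, passed the filter only through the hilum, which fixed their direction. The lowest coat mean of the group was 0.00673 RPKM, so the count was set in part by the filter.

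Lignin-polymerising laccases showed the same pattern. The LAC4 homologue Glyma.12G121700 was at 2.02 and 1.92 RPKM at 25-50 mg and 7.83 and 6.82 at 50-100 mg in the hilum. Its coat values were 0.0158 and 0.0107 RPKM at 25-50 mg and 0.0565 and 0.0225 at 50-100 mg. The tissues did not overlap, and the difference was 2.34 ± 0.28 (limma adjusted p = 0.000662). All 5 tested genes with a LAC4 or LAC11 hit were higher, by 2.16 to 2.71, while the other 20 of 25 such genes did not reach a mean RPKM of 1. The 5 tested genes had coat means of 0.0218 to 0.0488 RPKM and so passed this filter only through the hilum. That all 5 were higher was thus fixed by the filter. The peroxidase Glyma.16G200300 and the copper protein Glyma.05G076700 were higher by 3.90 ± 0.41 and 4.44 ± 0.36. Upstream, NAC007 (Glyma.06G318900), a transcription factor of the VND group that starts vessel formation, was at 1.16 to 3.40 RPKM in the hilum and 0.00526 to 0.0180 in the coat (1.62 ± 0.16, limma adjusted p = 0.000262). ANAC083, known to hold the VND proteins in check, was higher too, in its 2 copies Glyma.08G360200 (1.44 ± 0.08) and Glyma.04G175800 (1.40 ± 0.10).

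**Figure D2:**
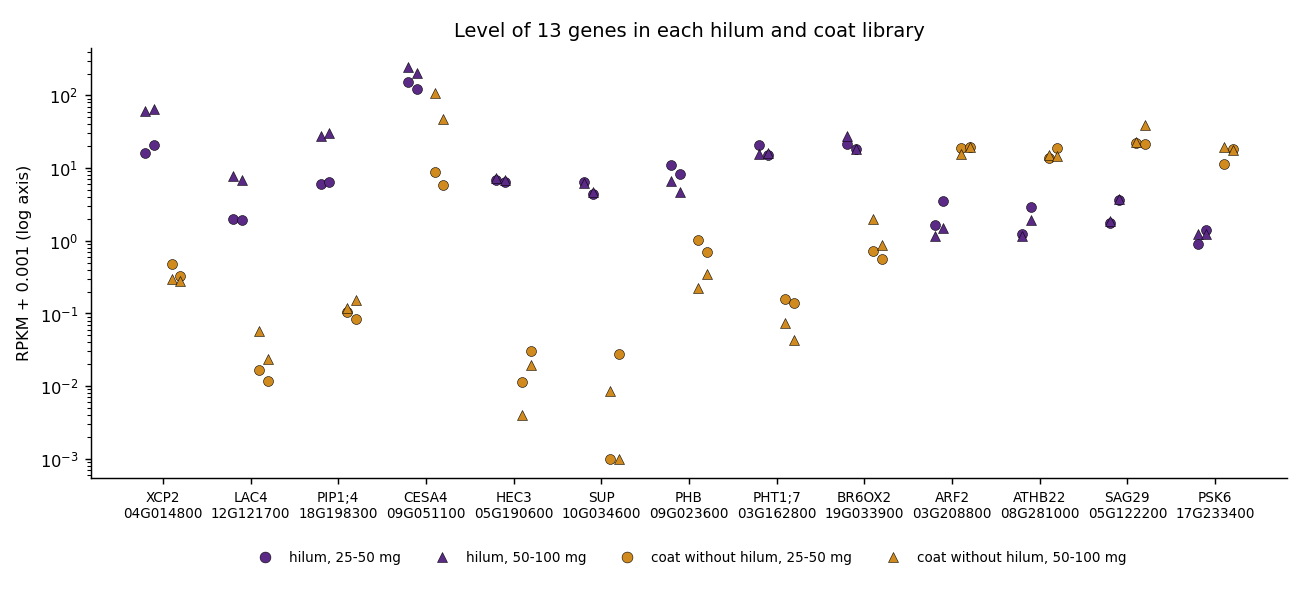
RPKM of 13 genes in each library on a log axis, with 0.001 added so that values of 0 can be drawn (circles 25-50 mg, triangles 50-100 mg, purple hilum, orange coat without hilum, in each pair a library of R51 to R58 on the left and of R126 to R129 on the right). None of these chosen genes overlaps between the tissues; XCP2, LAC4 and PIP1;4 rise from the earlier to the later hilum libraries while they stay at or under 0.472 RPKM in the coat, and ARF2, ATHB22, SAG29 and PSK6 are at 0.911 to 3.78 in the hilum and at 11.2 or more in the coat.

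Secondary-wall genes were also higher in the hilum, but the coat made them too. CESA4 (Glyma.09G051100), a subunit of the cellulose synthase complex of secondary walls, was at 152.4 and 121 RPKM at 25-50 mg and 243 and 204 at 50-100 mg in the hilum. In the coat it was at 8.79 and 5.82 RPKM at 25-50 mg and 106 and 47.4 at 50-100 mg. The tissues did not overlap, but the coat had come far up between the stages. The difference was 3.02 ± 0.48 (limma adjusted p = 0.00216). All 10 tested CESA4, CESA7 and CESA8 homologues were higher, with a median of 2.16, and 5 of them at least 4-fold. Primary-wall cellulose synthases, which all growing cells use, were higher in 12 of 14 but with a median of 0.90 and none 4-fold. Of 14 tested xylan synthesis genes 12 were higher and 0 lower, led by FRA8 (Glyma.11G193500, 2.09 ± 0.10) and IRX14-L (Glyma.01G189200, 2.07 ± 0.26). All 4 tested COBL4 genes, needed for ordered cellulose in secondary walls, were higher by 1.61 to 2.77. WAT1, a vacuolar auxin exporter that fibre walls need, was at 2.36 to 5.28 RPKM in the hilum and 0.00668 to 0.131 in the coat for Glyma.06G028000, and its copy Glyma.04G027800 was higher by 2.23 ± 0.18. With coat means of 0.0505 to 0.0592 RPKM, these WAT1 genes passed the filter only through the hilum. Fasciclin-like arabinogalactan proteins, cell-surface glycoproteins of thickening walls, were higher in 18 of 26 and lower in 3.

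The course over the stages separated the proteases, nucleases and laccases from the secondary-wall cellulose synthases. For the proteases and nucleases the median difference was 1.58 at 25-50 mg and 3.03 at 50-100 mg, and for the 5 tested laccases 1.60 and 3.06. Summed over all 25 laccase genes, tested or not, the level was 15.9 and 20.7 RPKM in the earlier hilum libraries. The sum was 39.9 and 60.3 in the later hilum libraries and 1.19 to 2.74 in the coat. For the 10 tested secondary-wall cellulose synthases the median difference went the other way, from 2.90 to 1.46. The summed level of all 15 such genes, tested or not, rose in the coat from 54.2 and 71.8 RPKM to 252.2 and 532. The change with stage was called for 6 of the 10 proteases and nucleases and 3 of the 5 laccases, all positive, and for 3 of the 10 cellulose synthases, all negative, against 0.785% of all tested genes in either direction. XCP2 (Glyma.04G014800) changed by 1.86 ± 0.19 (limma adjusted p = 0.0214) and CESA4 (Glyma.09G051100) by −2.43 ± 0.35 (limma adjusted p = 0.0383). Genes with a TBL3 hit, a protein that acts on the acetylation of wall polymers, had among the steepest declines. Glyma.16G098800, Glyma.07G152000 and Glyma.18G203100 changed by −3.36, −3.34 and −3.26. Over both stages the first differed by 2.17 ± 0.65 (limma adjusted p = 0.0282), and the tissue call of all 3 was lost when any 1 of the 4 libraries of 25-50 mg was left out (1.63 to 1.86 for the first). No change with stage, of these or any other gene, was called without the first 25-50 mg coat library, either 25-50 mg hilum library or the second 50-100 mg hilum library. For Glyma.16G098800 the hilum was at 82.5 and 49.4 RPKM at 25-50 mg and 116 and 70.9 at 50-100 mg, and the coat at 4.89 and 3.28 RPKM at 25-50 mg and 130.2 and 39.8 at 50-100 mg. The 2 later coat libraries lay far apart for this gene, the deeper one above every hilum library and the other below every one. An undescribed gene, Glyma.08G138300, was at 187 to 289 RPKM in the hilum and was at 3.12 and 3.86 RPKM at 25-50 mg and 91.95 and 39.8 at 50-100 mg in the coat.

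**Figure D3:**
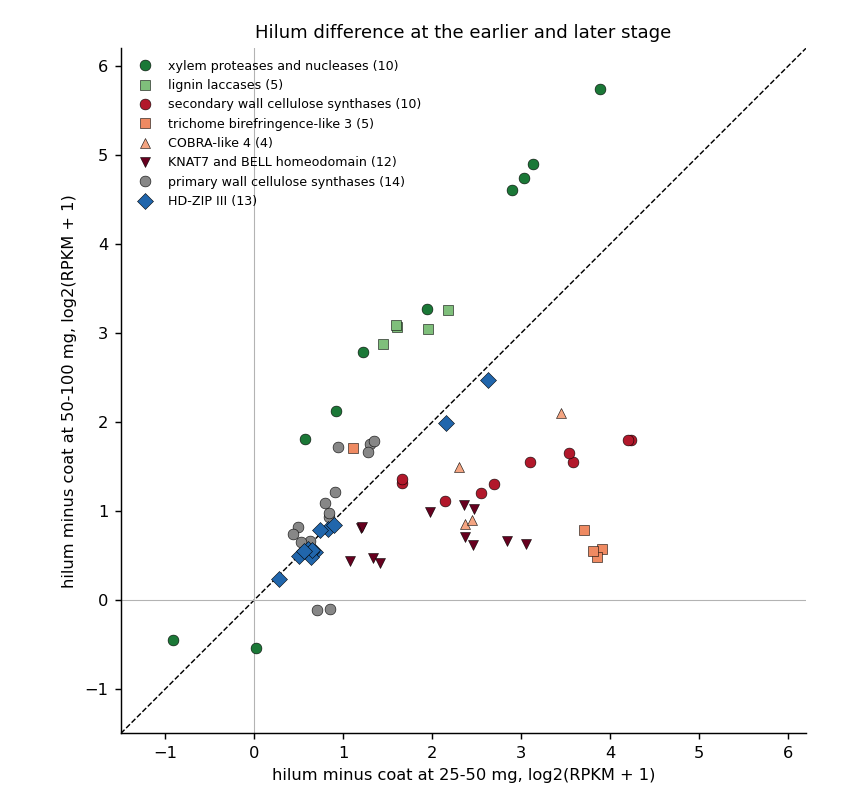
Difference between hilum and coat on the log2(RPKM + 1) scale at 25-50 mg (horizontal) and at 50-100 mg (vertical), 1 point per tested gene, with the number of genes of each group in parentheses and a dashed line where both stages are equal. All 5 laccases and 9 of the 10 xylem proteases and nucleases lie above the line (medians 1.60 and 3.06, and 1.58 and 3.03), all secondary-wall cellulose synthases, COBRA-like 4 and KNAT7 and BELL genes below it, and HD-ZIP III genes close to it (medians 0.65 and 0.57).

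In all, 229 genes changed their hilum difference with stage, 82 of them downwards and the others upwards, and 2336 had an unadjusted p under 0.05. This count rests on single libraries: it was 0 without the first 25-50 mg coat library, without either 25-50 mg hilum library or without the second 50-100 mg hilum library, with 1453 to 3028 genes at an unadjusted p under 0.05 in those limma fits. It was 7 without the first 50-100 mg hilum library, 95 without the first and 785 without the second 50-100 mg coat library, and 70 without the second 25-50 mg coat library. It was 7 without the series block, 93 without rescaling and 31 with a pseudocount of 0.1. The largest positive changes fell on 2 invertase and pectin methylesterase inhibitor genes. Glyma.15G184400 was level in the hilum, at 3.58 to 3.64 RPKM, and in the coat dropped from 15.6 and 12.2 to 1.16 and 2.40 (change 2.42 ± 0.28, limma adjusted p = 0.0249). Glyma.09G077100 did the same, with 8.13 and 9.98 RPKM at 25-50 mg and 8.74 and 13.4 at 50-100 mg in the hilum and 21.8 and 18.9 RPKM at 25-50 mg and 2.52 and 5.80 at 50-100 mg in the coat. Both were below the coat at the earlier stage and above it at the later one. The arabinogalactan protein AGP14 (Glyma.02G072400) rose in the hilum from 5.28 and 5.74 to 9.21 and 13.4 RPKM while it fell in the coat from 3.14 and 3.17 to 0.684 and 0.878. A bHLH factor, Glyma.17G156000, was at 6.17 to 8.77 RPKM in the hilum and rose in the coat from 0.635 and 0.413 to 3.51 and 2.79 (change −1.36 ± 0.22).

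Transcription factor genes as a class were slightly above the background of 26.6% and 22.1% in both directions, with 415 of 1288 higher (32.2%) and 330 lower (25.6%). Without rescaling the balance turned to 313 and 424 (24.2% and 32.8%), as it did for all tested genes (5051 and 9712 of 29296). Families differed among themselves. More members were higher than lower among the GRAS factors (35 and 6 of 63), WRKY (27 and 5 of 55), AP2 and ERF (45 and 14 of 98), GATA (16 and 3 of 42) and heat shock factors (13 and 5 of 25). More were lower than higher among the TCP factors (5 higher and 11 lower of 24), LOB domain (3 and 8 of 16), SPL (2 and 7 of 21), NF-Y (7 and 13 of 42) and B3 and ARF genes (14 and 26 of 66). Near-even splits were 68 higher and 71 lower of 245 for MYB, 21 and 22 of 69 for NAC, 34.2% and 35.5% for homeodomain and 11 and 11 of 41 for MADS box. Without rescaling these 4 had more lower members, with 48 and 90 for MYB, 18 and 28 for NAC, 29.6% and 40.8% for homeodomain and 9 and 14 for MADS box. The excess of higher members then shrank to 6 and 5 in heat shock factors, 10 and 4 in GATA, 23 and 9 in WRKY and 38 and 22 in AP2 and ERF genes, and the lower members rose to 10 against 0 in SPL and 16 against 5 in NF-Y genes. With each library left out in turn, 9 to 16 GATA and 8 to 15 heat shock factors were higher, and 4 to 9 NF-Y genes. The genes called lower then numbered 3 to 10 for SPL, 16 to 24 for B3 and ARF and 3 to 6 for WRKY. Among bHLH, bZIP, C2H2 and DOF genes the balance depended on the scaling, with more higher as rescaled and more lower without rescaling.

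Several single factors were higher in the hilum, some of them known from the development of floral organs. HEC3, SUPERMAN, ZFP11 and WRKY28 were close to absent from the coat without hilum. HEC3 (Glyma.05G190600), a bHLH factor of the transmitting tract, was at 6.96 and 6.48 RPKM at 25-50 mg and 7.36 and 6.79 at 50-100 mg in the hilum. In the coat it was at 0.0103 and 0.0292 RPKM at 25-50 mg and 0.00299 and 0.0184 at 50-100 mg. The 4 hilum values were within 1 RPKM of each other, and the difference of 3.02 ± 0.07 (limma adjusted p = 2.64e-06) was as large at both stages (2.97 and 3.08). Its homologue Glyma.08G156000 was higher by 1.72 ± 0.10. With coat means of 0.015 RPKM, these HEC3 genes passed the filter only through the hilum. The C2H2 factor SUPERMAN (Glyma.10G034600), which limits cell division at a floral boundary and in the outer integument, was at 6.41 and 4.42 RPKM at 25-50 mg and 6.33 and 4.66 at 50-100 mg in the hilum and 0 and 0.0266 RPKM at 25-50 mg and 0.00756 and 0 at 50-100 mg in the coat, where the values are at or near the limit of 3 reads. The related ZFP11 (Glyma.13G120900) was higher by 2.86 ± 0.10 (limma adjusted p = 4.23e-06). The AP2 factors TINY2 were higher in both copies, Glyma.14G146100 by 3.21 ± 0.14 and Glyma.09G233800 by 2.68 ± 0.15. WRKY57 (Glyma.02G115200) was at 6.54 to 8.82 RPKM in the hilum and 0.466 to 1.04 in the coat. WRKY28 (Glyma.14G028900) was at 2.12 to 4.33 and 0.00535 to 0.0996. MYB42 (Glyma.01G211500), an activator of lignin synthesis genes, was higher by 2.40 ± 0.14, and MYB30 (Glyma.18G259100) by 2.38 ± 0.15. The GATA9 pair Glyma.19G110200 and Glyma.16G042300 was higher by 2.26 ± 0.12 and 1.77 ± 0.18.

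Class III homeodomain-leucine zipper factors, which specify the upper side of organs and xylem identity, were higher in the hilum in all 13 tested genes of 14. For most the difference was under 1, but the PHABULOSA homologue Glyma.09G023600 was at 11.1 and 8.33 RPKM at 25-50 mg and 6.75 and 4.74 at 50-100 mg in the hilum and 1.02 and 0.691 RPKM at 25-50 mg and 0.223 and 0.344 at 50-100 mg in the coat. It fell with stage in both tissues and did not overlap between them (2.55 ± 0.10, limma adjusted p = 5.42e-06). Its copy Glyma.15G129700 was higher by 2.07 ± 0.15. Proteins of the ALOG family with an LSH10 hit gave some of the largest differences of any regulator: Glyma.06G277400 was at 50.04 to 66.3 RPKM in the hilum and 0.950 to 1.41 in the coat (4.79 ± 0.09, limma adjusted p = 1.5e-06), and Glyma.13G270300 at 114 or more in every hilum library and 11.8 to 15.8 in the coat (3.35 ± 0.10). Of 10 tested LSH genes 8 were higher and 0 lower. The KNOX factor KNAT7, which acts in secondary walls, and its BELL partners were higher in 12 of 12 tested genes. Their median difference was 2.17 at 25-50 mg and 0.69 at 50-100 mg, and all 12 moved down. Glyma.01G179900, a BLH2 homologue, was at 13.9 to 21.1 RPKM in the hilum and rose in the coat from 1.42 and 0.829 to 18.6 and 8.41 (change −2.43 ± 0.27, limma adjusted p = 0.0249). Its tissue call (1.84 ± 0.47) was lost without the second 25-50 mg coat library (1.57) or the first 25-50 mg hilum library (1.60). KNAT3 genes were split, with 3 higher and 2 lower of 8: Glyma.17G104800 and Glyma.13G157300 were higher by 1.77 ± 0.07 and 1.62 ± 0.07, and Glyma.15G202200 and Glyma.17G215500 lower, at −0.36 and −0.31. These last calls were lost without the first 25-50 mg hilum library (−0.33) and the second 25-50 mg coat library (−0.29), respectively.

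MADS box genes of ovule and fruit identity were expressed in both tissues, at different ratios. SHATTERPROOF homologues, which in the Arabidopsis fruit mark the cells that separate, were higher in the hilum in 6 of 6 genes by 0.55 to 1.13. The highest difference was in Glyma.02G287700, at 46.1 and 39.4 RPKM at 25-50 mg and 46.9 and 39.02 at 50-100 mg in the hilum and 17.8 and 18.4 RPKM at 25-50 mg and 28.3 and 22.6 at 50-100 mg in the coat, without overlap. Both SEEDSTICK homologues, factors of ovule identity and of seed detachment, were not called (Glyma.04G257100 0.36 ± 0.15, Glyma.06G324400 0.13 ± 0.14), apart from the former without the first 50-100 mg hilum library (0.43). AGAMOUS homologues were lower in 3 of 4 genes, at −0.53 to −0.37. Of 12 tested SEPALLATA homologues 3 were lower and 0 higher. SEP3 (Glyma.05G148800) was at 25.8 to 34.8 RPKM in the hilum and 65.2 to 101 in the coat (−1.24 ± 0.09, limma adjusted p = 8.52e-05). The homologues of the petal and stamen factor AP3 went opposite ways, with Glyma.04G027200 higher by 1.82 ± 0.15 and Glyma.01G169600 lower, at −1.39 ± 0.14.

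A second set of regulators was higher in the coat. ARF2 (Glyma.03G208800), an auxin response factor that restrains integument growth, was at 1.64 and 3.47 RPKM at 25-50 mg and 1.15 and 1.51 at 50-100 mg in the hilum. In the coat it was at 18.9 and 19.7 RPKM at 25-50 mg and 15.8 and 19.4 at 50-100 mg. The tissues did not overlap at either stage (−2.63 ± 0.13, limma adjusted p = 1.4e-05). The zinc finger TT1, which acts in the pigmented inner layer of the Arabidopsis coat, was at 0.846 to 1.76 RPKM in the hilum and 7.17 to 11.2 in the coat for Glyma.13G090000, and its copy Glyma.14G174900 was lower, at −1.96. The homeodomain gene ATHB22 (Glyma.08G281000) was at 1.15 to 2.87 and 13.9 to 18.9 RPKM, and its neighbour Glyma.08G281100 was nearly identical. ANAC100 was lower in both copies, Glyma.18G261300 at −2.40 and Glyma.09G235700 at −2.09. All 7 tested genes with a TCP2 or TCP3 hit, factors that slow the growth of leaf margins, were lower, while both TCP4 homologues were higher, 1 of them without rescaling. The steepest was TCP3 (Glyma.12G228300, −1.69 ± 0.15). Others were an SPL factor (Glyma.06G168600, −2.20 ± 0.21), LBD18 (Glyma.18G221000, −1.75 ± 0.16), a GT2-type factor (Glyma.16G167600, −2.09 ± 0.09) and 1 of the LBD41 genes (Glyma.08G261900, −1.94 ± 0.10). Another LBD41 gene, Glyma.08G365100, was higher by 0.69 ± 0.11.

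Of 575 tested transporter genes 37.4% were called higher and 23.5% lower, with 22 and 11 genes past 4-fold. Without rescaling the shares were 26.9% and 31.2%, beside 5051 higher and 9712 lower of all 29296 genes then tested. Families with more higher than lower members were the EamA-like exporters (38 and 16 of 70), which carry amino acids and other metabolites out of cells, aquaporins (22 and 4 of 46), potassium transporters (22 and 5 of 50) and proton pumps (21 and 5 of 43). MATE transporters were lower in 18 of 34 and higher in 8. SWEET and ABC genes had more lower than higher members, 9 and 7 of 25 and 30 and 26 of 87. Amino acid permeases had 25 higher and 16 lower members, phosphate and sulphate transporters 8 and 6, and metal transporters 13 and 9, and all 3 balances turned without rescaling, to 16 and 25, 4 and 10, and 9 and 17. Potassium transporters were then 15 and 8, and SWEET genes 6 higher and 12 lower. With each library left out in turn, 13 to 21 proton pumps were higher, 2 to 6 potassium transporters lower, and 15 to 30 ABC genes lower against 21 to 23 higher.

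Sugar carriers went both ways. The SWEET exporter Glyma.06G166800 was at 57.5 and 41.4 RPKM at 25-50 mg and 61.9 and 48.5 at 50-100 mg in the hilum. In the coat it was at 4.14 and 1.78 RPKM at 25-50 mg and 11.6 and 5.33 at 50-100 mg. The tissues did not overlap (3.34 ± 0.24, limma adjusted p = 6.08e-05). A second, Glyma.04G198600, was higher by 2.46 ± 0.27. The SAG29 (SWEET15) homologue Glyma.05G122200, of a gene that releases sucrose from the Arabidopsis seed coat, was at 1.74 and 3.65 RPKM at 25-50 mg and 1.86 and 3.78 at 50-100 mg in the hilum and 22.2 and 21.3 RPKM at 25-50 mg and 22.9 and 39.3 at 50-100 mg in the coat, the reverse order (−2.72 ± 0.16, limma adjusted p = 2.5e-05). Its copy Glyma.08G077200 was lower, at −2.66 ± 0.16. Summed over all 52 SWEET genes, of which 25 were tested, the tissues overlapped, at 691 to 921 RPKM in the hilum and 802 to 1372 in the coat. Among sucrose symporters SUC2 (Glyma.02G075000), the phloem loader, and SUC7 (Glyma.16G156800) were lower, at −1.39 and −1.54, and 4 other symporters were higher by 0.32 to 0.78, of which 1 stayed called as higher without rescaling. The polyol carrier PLT5 (Glyma.12G037000) was lower, at −1.44, and the hexose carrier STP1 (Glyma.02G124100) higher by 0.75 ± 0.17.

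**Figure D4:**
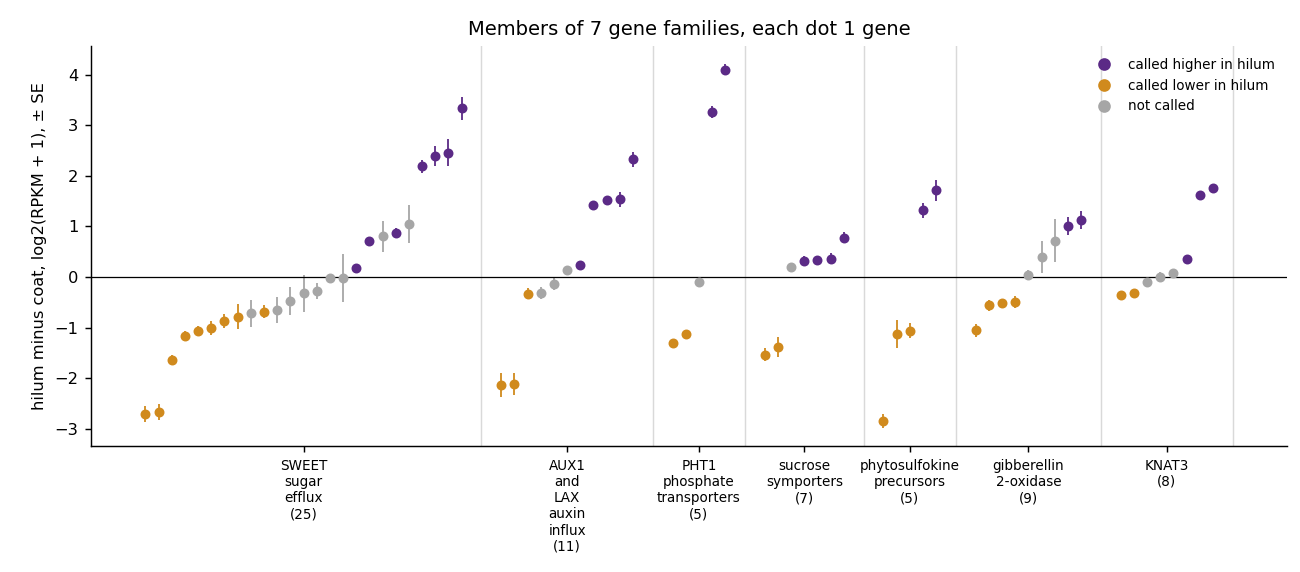
Difference between hilum and coat (log2(RPKM + 1), ± SE) of every tested member of 7 gene families that had members called in both directions, ordered within each family. Purple is called higher in the hilum, orange lower and grey not called; SWEET genes run from −2.72 to 3.34 and PHT1 genes from −1.30 to 4.11.

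Phosphate and auxin carriers also had homologues called in opposite directions. PHT1;7 (Glyma.03G162800), a high-affinity phosphate importer, was at 21.1 and 15.2 RPKM at 25-50 mg and 15.7 and 16.2 at 50-100 mg in the hilum and 0.159 and 0.138 RPKM at 25-50 mg and 0.0731 and 0.0428 at 50-100 mg in the coat. The coat values were at most 0.159 RPKM, and the difference was 4.11 ± 0.11 (limma adjusted p = 3.34e-06). Glyma.19G164300 behaved alike (3.27 ± 0.12), and the homologues Glyma.10G186500 and Glyma.20G204000 were lower, at −1.30 and −1.12. Of 11 tested AUX1 and LAX genes, which import auxin, 5 were higher and 3 lower, or 4 and 4 without rescaling. Glyma.02G255800 was at 43.5 and 43.1 RPKM at 25-50 mg and 46.4 and 32.9 at 50-100 mg in the hilum and 7.94 and 6.88 RPKM at 25-50 mg and 12.6 and 7.14 at 50-100 mg in the coat (2.33 ± 0.15, limma adjusted p = 3.61e-05). Glyma.11G228300 was at 2.49 and 4.13 RPKM at 25-50 mg and 3.04 and 3.76 at 50-100 mg in the hilum and 11.2 and 14.2 RPKM at 25-50 mg and 29.4 and 33.3 at 50-100 mg in the coat (−2.13 ± 0.23), where it rose between the stages, and its copy Glyma.18G029000 did the same. Both of these changed with stage, by −1.21 and −1.14. PIN genes, which export auxin, were higher in 7 of 9 and lower in 0, among them PIN3 (Glyma.20G014300, 1.48 ± 0.06).

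Water channels of the plasma membrane were higher in 13 of 25 tested PIP genes and lower in 0. All 30 PIP genes, tested or not, summed to 1397 to 1677 RPKM in the hilum and 825 to 1207 in the coat. PIP1;4 (Glyma.18G198300) differed from its homologues in being nearly silent in the coat. It was at 6.05 and 6.40 RPKM at 25-50 mg and 27.9 and 30.4 at 50-100 mg in the hilum and 0.105 and 0.0823 RPKM at 25-50 mg and 0.117 and 0.151 at 50-100 mg in the coat, and the hilum rose with stage (3.81 ± 0.39, limma adjusted p = 0.000298, change with stage 2.05 ± 0.17). The abundant PIP2;2 genes Glyma.16G155000 and Glyma.02G073600 were higher by 1.68 ± 0.17 and 1.70 ± 0.15, without overlap between the tissues. NIP1;2 (Glyma.05G162500), of the aquaporins that also carry small solutes, was at 61.4 to 72.01 RPKM in the hilum and in the coat rose from 4.07 and 4.62 to 17.9 and 14.8 (2.98 ± 0.33, change −1.71 ± 0.21). Among single carriers picked for their role, the nitrate transporter NRT1.5 (Glyma.18G260000) was higher by 0.97 ± 0.12, with levels that overlapped between the tissues over the 2 stages, and the citrate exporter FRD3 (Glyma.15G274600) by 0.88 ± 0.10. The potassium channel AKT1 (Glyma.17G118300) was higher by 1.02 ± 0.17.

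The largest difference of any transporter was in the ABC gene Glyma.06G248800, of the ABC-2 type family. It was at 38.5 and 28.4 RPKM at 25-50 mg and 38.8 and 36.1 at 50-100 mg in the hilum and 0.0308 and 0.131 RPKM at 25-50 mg and 0.101 and 0.121 at 50-100 mg in the coat (5.13 ± 0.11, limma adjusted p = 1.5e-06). A second ABC gene, Glyma.03G175300, was higher by 3.38 ± 0.13, and Glyma.13G279800 lower, at −2.06. EamA genes reached 2.40 ± 0.08 in Glyma.18G187400 and −2.59 ± 0.19 in Glyma.02G222100. An amino acid transporter, Glyma.01G084800, was higher by 2.60 ± 0.10. The MATE genes Glyma.17G247400 and Glyma.14G078000 were lower, at −2.69 and −2.35. TT12 (Glyma.14G032400), the MATE carrier of flavonoid precursors into the vacuole, was at 33.1 and 48.7 RPKM at 25-50 mg and 5.30 and 11.5 at 50-100 mg in the hilum and 83.2 and 79.7 RPKM at 25-50 mg and 20.3 and 43.1 at 50-100 mg in the coat, lower in the hilum at each stage (−1.23 ± 0.23).

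Of 489 tested hormone genes 37.4% were called higher and 22.1% lower. Without rescaling the shares were 30.6% and 30%, beside 5051 higher and 9712 lower of all 29296 genes then tested. Ethylene genes stood out by count, with 31 of 56 higher and 3 lower (25 and 10 without rescaling), but no member was past 4-fold. They included ACO4 (Glyma.07G264200), the last enzyme of ethylene synthesis, at 11.8 to 19.4 RPKM in the hilum and 3.64 to 8.71 in the coat (1.37 ± 0.22), and ERF5 (Glyma.11G036400, 1.21 ± 0.19). Brassinosteroid genes were higher in 15 of 38 and lower in 4, which became 12 and 11 without rescaling. The largest change was in the last enzyme of brassinosteroid synthesis, BR6OX2. Glyma.19G033900 was at 21.6 and 18.5 RPKM at 25-50 mg and 27.7 and 18.5 at 50-100 mg in the hilum and 0.728 and 0.562 RPKM at 25-50 mg and 1.96 and 0.885 at 50-100 mg in the coat. The tissues did not overlap, and the difference was 3.62 ± 0.11 (limma adjusted p = 3.34e-06), with 3.06 ± 0.09 for its copy Glyma.13G052900. The earlier enzyme CPD was called in 1 of 4 genes (Glyma.11G228900, 0.50 ± 0.14), a call lost without any 1 of 5 libraries (0.35 to 0.52), and CYP90D1 in 3 of 3, by 0.67 to 0.96.

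Auxin genes were higher in 65 of 168 and lower in 36, or 54 and 46 without rescaling. A pair with no closer name than auxin-responsive family protein was close to absent from the coat. Glyma.14G006300 was at 15.9 and 14.8 RPKM at 25-50 mg and 15.8 and 14.9 at 50-100 mg in the hilum and 0.0433 and 0.0401 RPKM at 25-50 mg and 0.0422 and 0.0492 at 50-100 mg in the coat. The 4 hilum values spanned little more than 1 RPKM (4.04 ± 0.07, limma adjusted p = 8.5e-07), and Glyma.02G306800 was higher by 3.44 ± 0.09. The auxin-conjugating enzyme DFL1 (Glyma.12G216700) was lower, at −1.42. Cytokinin genes went both ways. Lysine decarboxylase family genes, the family of the rice enzyme LOG that releases active cytokinin, were higher in 8 of 11 and lower in 2, led by Glyma.03G181300 (2.60 ± 0.14) and Glyma.19G182100 (2.27 ± 0.10). The synthesis gene IPT5 (Glyma.18G297300) was lower, at −1.53, and the response regulator ARR17 (Glyma.06G142300) at −1.96.

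Gibberellin genes were lower in 23 of 38 and higher in 7. Many of these encode small cysteine-rich peptides that gibberellin induces, of which 19 of 25 were lower and 4 higher. GASA1 (Glyma.04G024400) was at 1.43 and 12.9 RPKM at 25-50 mg and 4.05 and 22.7 at 50-100 mg in the hilum and 106 and 242 RPKM at 25-50 mg and 275 and 379.8 at 50-100 mg in the coat (−4.67 ± 0.32, limma adjusted p = 5.15e-05). Against them stood Glyma.19G133600, at 15.9 and 17.98 RPKM at 25-50 mg and 3.72 and 4.25 at 50-100 mg in the hilum and 0.103 to 1.54 in the coat (2.74 ± 0.22), and GASA4 (Glyma.18G259400, 1.36 ± 0.17). Gibberellin 2-oxidases, which inactivate gibberellin, were split, with 2 higher and 4 lower of 9 tested. The abundant genes Glyma.01G105200 and Glyma.15G248400 were higher by 1.13 ± 0.18 and 1.01 ± 0.17, and Glyma.13G259400 was lower, at −1.06. Abscisic acid genes had 15 higher and 14 lower members of 64 (9 and 19 without rescaling). Their shares, 23.4% and 21.9%, were near the 26.6% and 22.1% of all tested genes. Jasmonate genes had 7 and 10 of 28, and salicylate genes 6 and 3 of 13 (5 and 4 without rescaling). With each library left out in turn, 8 to 17 abscisic acid genes were higher, 6 to 10 jasmonate genes lower and 22 to 36 auxin genes lower. Genes of late flavonoid synthesis and transport, the pathway of seed coat pigments, had 7 higher and 8 lower of 27. These shares, 25.9% and 29.6%, were also near those of all tested genes. The counts were 5 to 9 and 3 to 9 when each library was left out and 10 and 8 in limma voom. Wound and senescence genes had 10 higher and 11 lower of 48 (7 and 15 without rescaling), and at 20.8% and 22.9% were likewise near the shares of all tested genes.

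Signalling peptides were higher in 19 of 29 and lower in 6. Of 12 genes of the IDA-like peptides, relatives of the Arabidopsis peptide that triggers floral abscission, 2 were tested, and both were near 0 in the coat. With coat means of 0.0123 to 0.0198 RPKM they passed the filter only through the hilum, which fixed their direction. All 12 genes summed to 5.26 to 9.69 RPKM in the hilum. In the coat they summed to 2.39 in the first 50-100 mg library and 0.116 to 0.180 in the others. Glyma.05G189500 was at 4.56 and 3.17 RPKM at 25-50 mg and 3.41 and 2.60 at 50-100 mg in the hilum and 0 and 0.00862 RPKM at 25-50 mg and 0.0132 and 0.0272 at 50-100 mg in the coat (2.17 ± 0.11, limma adjusted p = 1.48e-05), and Glyma.08G147100 was higher by 2.08 ± 0.11. Phytosulfokine precursors, which give a growth peptide, were opposed: the PSK4 homologues Glyma.20G135700 and Glyma.10G255800 were higher by 1.72 ± 0.21 and 1.32 ± 0.15. PSK6 (Glyma.17G233400) was at 0.911 and 1.41 RPKM at 25-50 mg and 1.25 and 1.23 at 50-100 mg in the hilum and 11.2 and 18.3 RPKM at 25-50 mg and 19.2 and 17.6 at 50-100 mg in the coat (−2.84 ± 0.14, limma adjusted p = 1.41e-05). The natriuretic peptide PNP-A (Glyma.06G069400) and the peroxidase Glyma.19G091800 had the largest differences of the described genes at a mean RPKM of 5 or more in 1 tissue, 5.99 ± 0.21 and 5.99 ± 0.23. RALF peptides, which act on wall growth, were higher in 9 of 12 and lower in 1, with RALFL33 (Glyma.19G233700) at 1.28 ± 0.17.

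Genes on an abscission list drawn up by description were also more often higher than lower. Its named members are described only as pectin lyase-like, and whether they act in an abscission layer was not tested. Of 61 tested genes on the abscission list 35 were higher and 8 lower, and 14 were at least 4-fold higher. The pectin lyase-like gene Glyma.17G126500 was at 22.03 and 16.97 RPKM at 25-50 mg and 26.6 and 12.6 at 50-100 mg in the hilum and 0.461 and 0.550 RPKM at 25-50 mg and 0.349 and 0.299 at 50-100 mg in the coat (3.91 ± 0.15, limma adjusted p = 5.03e-06), and Glyma.05G044000 was higher by 3.45 ± 0.17. Cuticle and suberin genes were divided by member, with 14 at least 4-fold higher and 13 at least 4-fold lower of 120. The GDSL lipase Glyma.19G051100 was at 24.9 to 96.5 RPKM in the hilum and 0.102 to 0.179 in the coat (5.76 ± 0.30), and the GDSL lipase Glyma.09G233900 at 10.6 to 21.97 and 120.5 to 267 (−3.21 ± 0.26). Others of the 12 largest increases were the peroxidase Glyma.16G055900 (4.72 ± 0.20), the glutathione transferase GSTU15 (Glyma.10G192900, 5.55 ± 0.14), a lipid transfer protein (Glyma.03G073500, 5.46 ± 0.31) and 2 ribonuclease H-like genes whose values here nearly coincide (Glyma.03G018200 and Glyma.03G018300, 4.77 ± 0.32). The largest decreases were in expansin A2 (Glyma.03G035800, −5.65 ± 0.53), which loosens growing walls, a gibberellin-regulated pair (Glyma.13G039600, −4.87, and Glyma.13G039300, −4.85), a putative membrane lipoprotein (Glyma.13G223600, −4.48 ± 0.28) and 4 self-incompatibility protein S1 genes, among them Glyma.08G353300 (−4.88 ± 0.28) and Glyma.18G232500 (−4.68 ± 0.23). Defensin-like LCR19 (Glyma.08G234100) and alcohol dehydrogenase 1 (Glyma.13G035200) were lower, at −4.41 and −4.16.

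The most abundant transcripts of the hilum were abundant in the coat too. Lipid transfer protein 1 (Glyma.01G132500) was the highest of all in the hilum, at 5066 and 5730.0 RPKM at 25-50 mg and 5112 and 7592 at 50-100 mg, and was at 959 and 1627 RPKM at 25-50 mg and 2545 and 2693 at 50-100 mg in the coat. Every hilum library was above every coat library, yet the difference of 1.85 ± 0.70 was not called (limma adjusted p = 0.0601). The peroxidase PRXR1 (Glyma.17G013600) was not called either (1.41 ± 0.64), and its homologue Glyma.07G260300 was higher by 1.98 ± 0.41, a call lost without the second library of the coat at either stage (1.89 and 1.99). Both uncalled differences were called without the first 50-100 mg hilum library (2.04 and 1.57). An enzyme of the pectin acetylesterase family (Glyma.16G107500) was at 2109 and 1732 RPKM at 25-50 mg and 4251 and 4141 at 50-100 mg in the hilum and 179.7 and 206 RPKM at 25-50 mg and 1218 and 638 at 50-100 mg in the coat (2.95 ± 0.44, limma adjusted p = 0.00163). The coat was marked by the undescribed genes Glyma.09G092700, at 413 to 893 RPKM in the hilum and 1724 to 5343 in the coat, and Glyma.14G033000, at 50.6 to 111 and 1247 to 2935. A lipid transfer protein, Glyma.02G281400, was lower, at −3.85 ± 0.30.

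The 38 other libraries of the series, normalized in a table of their own, show where else these genes were expressed, as levels with no test. XCP2 (Glyma.04G014800) was at 37.0 RPKM in roots flooded for 12 h, 36.8 in unflooded W54 root and 20.1 in Richland leaf, and at 0 to 11.6 in coats and seeds. PIP1;4 (Glyma.18G198300) followed it, with 10.6 in the same flooded root and up to 4.77 in a coat. The floral regulators had another distribution. SUPERMAN (Glyma.10G034600) and ZFP11 (Glyma.13G120900) were highest in W55 whole seed, at 8.53 and 10.6 RPKM, and HEC3 (Glyma.05G190600) at 3.79, and all 3 were at 0 in leaf and in unflooded root. PNP-A (Glyma.06G069400) was highest in RM38 coat of 25-50 mg at 24.5 and at 0 to 0.0103 in root and leaf. ARF2 (Glyma.03G208800), PSK6 (Glyma.17G233400) and ATHB22 (Glyma.08G281000) were at 30.4, 44.6 and 18.2 in Richland coat of 10-25 mg and at most 0.0498 in root and leaf. Whole coats of W43 at 25-50 mg held XCP2 at 5.87 and SUPERMAN at 0.745, between the values of hilum and coat given above.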

How the data were processed

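Total RNA was extracted with phenol and chloroform, libraries were made with Illumina TruSeq kits, and reads were aligned with Bowtie, per the labels' protocols and the submitters' processing notes. Its version, the genome build and the annotation are not stated there. The authors deposited RPKM values per transcript model (88647 models of 56044 genes, 44456 of them described). With cDNA length and library total, 100% of these RPKM values gave whole reads within 0.01 of a read. In the series, 4 value columns with no sample were left out.

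For each gene the model with the longest cDNA was kept. RPKM was rescaled by median ratios (size factors 0.875 to 1.14), and log2(RPKM + 1) was fitted with limma 3.58.1 (R 4.3.3) on tissue, stage and library series for genes at a mean RPKM of 1 or more, with Benjamini-Hochberg adjustment. The change with stage is the interaction of tissue and stage in the same kind of fit. Libraries R51 to R58 and R126 to R129 form 2 series, used as a replicate block: deviations from group means correlated at 0.45 to 0.66 over the 6 pairs of groups. With 2 libraries per group the deviations of one series mirror those of the other, so both series give the same 6 values. The labels say biological repeats and no more, so p-values measure the spread between these libraries. The scripts were tested on simulated data. Tables and figures used Python 3.11.15, pandas 2.3.3, numpy 2.4.6 and matplotlib 3.10.9.

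The members and lists were chosen with earlier results of these data known. The rule for named genes took the 12 highest and 12 lowest described genes called at a mean RPKM of 5 or more, up to 2 per list and direction, the 8 most abundant per tissue and 4 per direction of stage change. Groups by symbol, further genes named for their role and the 4-fold rule were chosen after values had been seen. Alternatives changed the rescaling, block, pseudocount, filter, gene model and test (limma voom on rebuilt reads), used 1 stage or series, or left out each library. The 38 libraries of the other table were normalized separately and enter no test. No reference sequence was used here.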

Additional observations from a re-analysis of the deposited data

Results flagged for a closer look

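The genes named above whose difference between hilum and coat differed between the stages are given here once more with the change itself, which is the difference at 50-100 mg minus that at 25-50 mg on the log2(RPKM + 1) scale (limma interaction of tissue and stage, adjusted p under 0.05 over all 29163 tested genes). Positive changes were 1.86 in XCP2 (Glyma.04G014800), 1.77 in Glyma.04G014700, 1.71 in Glyma.06G014700 and 1.71 in Glyma.06G014800, its homologues. XSP1 (Glyma.09G266000) changed by 1.33, BFN1 (Glyma.15G068600) by 1.57, LAC4 (Glyma.12G121700) by 1.50, the peroxidase Glyma.16G200300 by 2.17 and the copper protein Glyma.05G076700 by 1.93. The aquaporin PIP1;4 (Glyma.18G198300) changed by 2.05, AGP14 (Glyma.02G072400) by 2.10, and the inhibitor genes Glyma.15G184400 and Glyma.09G077100 by 2.42 and 2.34.

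Negative changes were −2.43 in CESA4 (Glyma.09G051100), −2.43 in BLH2 (Glyma.01G179900), −3.36, −3.34 and −3.26 in the TBL3 genes Glyma.16G098800, Glyma.07G152000 and Glyma.18G203100, and −3.19 in the undescribed Glyma.08G138300. The aquaporin NIP1;2 (Glyma.05G162500) changed by −1.71, the bHLH gene Glyma.17G156000 by −1.36, and the AUX1 genes Glyma.11G228300 and Glyma.18G029000 by −1.21 and −1.14. None of the 23 kept its call in every alternative, since no gene was called for a change with stage without the low-value filter or without 1 of 4 libraries.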

How the results depend on the processing

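Of 2784 values of the named genes under alternatives, 2691 kept direction and call, 71 lost the call, 20 gained one and 2 reversed: Glyma.09G077100 (−0.91, 25-50 mg only) and Glyma.15G184400 (0.88, 50-100 mg only), both not called over the 2 stages. Of 276 values of 23 stage changes, 187 lost the call and 0 reversed. Classes are given as the percentage of their tested genes called higher and lower. Without rescaling 5051 genes were higher and 9712 lower of 29296 tested. Without the filter, 9928 and 9600 of 52460 genes were higher and lower. The shares were then 23.2% and 18.2% for transcription factors, with 17.6% of transporters lower and 23.0% of hormone genes higher. With a filter at 5 the counts were 4318 and 2305 of 13403 tested, and the shares 37.5% and 16% for transcription factors, 45% and 21.0% for transporters, 44.5% and 20.9% for hormone genes and 73.6% and 11.5% for vascular genes. With 50-100 mg libraries only they were 3208 and 2460 of 28734, 17.1% and 15.8%, 20.2% and 14.6%, 21.5% and 14.3%, and 11.1% of vascular genes lower. With R51 to R58 only they were 1896 and 1515 of 29791, 11.6% and 10.2%, 13.1% and 9.17%, 13.2% and 9.82%, and 34.6% and 6.38%. The fit without the replicate block called 5906 and 4718. Changes with stage numbered 7 without the replicate block, 93 without rescaling, 31 with a pseudocount of 0.1 and 0 without the filter (4692 at an unadjusted p under 0.05 in limma). The cause was not tested. Leaving out each library gave 5515 to 8421 genes higher and 4458 to 6885 lower, 24.0% to 37.2% and 20% to 25.3% of transcription factors, 28.2% to 36.9% and 18.4% to 22.8% of transporters, 30.9% to 39.7% and 17.7% to 21.6% of hormone genes, 52.8% to 61.9% and 15% to 22.1% of vascular genes, and 0 to 785 changes with stage. Depth limits low values: 3 reads in 1 kb are up to 0.0383 RPKM.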

Other observations

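The library series themselves differed in some genes. Over the 8 libraries, 96 of 29163 tested genes were at least 4-fold higher in the libraries R51 to R58 than in R126 to R129, and 10 were at least 4-fold lower. A second PNP-A gene, Glyma.15G186700, was at 10.4 and 8.13 RPKM in the hilum libraries of R51 to R58 and at 0.0575 and 0.0899 in those of R126 to R129, while Glyma.06G069400 was at 44.5 to 80.3 in all 4 hilum libraries.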
